A study of Mus musculus with 12 samples.

Results

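The genes described here encode the CatSper calcium channel of sperm, the sperm proton exchanger and the adenylyl cyclase of the same signalling pathway. They were taken by gene symbol as 10 members, Catsper1, Catsper2, Catsper3, Catsper4, Catsperb, Catsperd, Catsperg1, Catsperg2, Slc9c1 and Adcy10, out of 21429 symbols in each of 2 deposited count tables. All 10 were found in both tables, and all 10 passed the filter on low counts in every comparison. RNA was sequenced from pachytene spermatocytes (PS), meiotic cells of mid-prophase, and from round spermatids (RS), the haploid cells formed by meiosis. Controls were Hdac3fl/+ mice, which carry a floxed and a normal allele of the histone deacetylase gene Hdac3. They are labelled wild type, without mention of a cre. Knockout (KO) mice were Stra8-cre/Hdac3fl/-, in which the Stra8-cre transgene drives Cre in germ cells ahead of meiosis, and the other allele is null. The age of the mice and the way the cells were separated were not given in the sources used here. Each of the 4 groups had 3 libraries, named replicate 1, replicate 3 and the remaining replicate, which the labels tie to its group only.

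CatSper is a calcium channel of the sperm flagellum that is opened by an alkaline cell interior and is needed for hyperactivated swimming and male fertility in mice. Its pore is built from CATSPER1, CATSPER2, CATSPER3 and CATSPER4, and auxiliary subunits, among them CATSPERB, CATSPERD and CATSPERG, surround it. SLC9C1 is a sodium/proton exchanger of the sperm flagellum, and ADCY10 is the bicarbonate-sensitive soluble adenylyl cyclase that makes cAMP in sperm.

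Hdac3 messenger RNA was checked first. Its level was 53.0 to 82.5 CPM (counts scaled to library size, with TMM factors over all 12 libraries) in control PS and 17.8 to 24.8 CPM in KO PS. In RS the range was 42.3 to 52.9 CPM in controls and 13.5 to 17.1 CPM in KO. The log2 fold change of KO over control was -1.67 (SE 0.217, adjusted p = 0.00558, edgeR quasi-likelihood test) in PS and -1.68 (SE 0.186, adjusted p = 0.00249) in RS, and the groups did not overlap in either cell type. The libraries held between 11205732 and 17467583 gene counts. Summed levels of 10 pachytene markers were 6300 to 7214 CPM in PS and 3580 to 5640 CPM in RS, and Ldhc, which did not pass between control PS and control RS, made up most of the RS sum at 3150 to 4494 CPM in control RS. Of the 10 markers, 6 were lower and 2 higher in control RS than in control PS, against 30.9% and 27.8% of all genes. Piwil1 went from 1099 to 1488 CPM down to 64.0 to 114 CPM. Summed levels of 11 late spermatid markers, which include the protamine genes, were 2836 to 6599 CPM in PS and 10523 to 31821 CPM in RS, so these transcripts were also present in the PS libraries.

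The members lie on 9 chromosomes of the mouse build GRCm38, in the GENCODE M21 annotation. The pore subunit genes are Catsper1 at chr19:5335741-5344280 on the plus strand, Catsper2 at chr2:121392631-121413792 on the minus strand, Catsper3 at chr13:55784568-55808998 on the plus strand and Catsper4 at chr4:134211970-134227383 on the minus strand. Of the auxiliary subunit genes, Catsperb is at chr12:101404653-101626009 and Catsperd at chr17:56628143-56664456, both on the plus strand. Catsperg1 at chr7:29181321-29214035 and Catsperg2 at chr7:29697219-29727032 are both on the minus strand. Slc9c1 is at chr16:45535309-45607001 and Adcy10 at chr1:165485183-165576774, both on the plus strand. Catsperg1 and Catsperg2 are near copies: 43.0% of the exonic 50-base stretches of Catsperg1 are also found in Catsperg2, and 44.1% of those of Catsperg2 in Catsperg1. Reads from these stretches can be split or lost in counting, so the levels of both are uncertain. Of the Catsperb stretches, 9.27% are shared with the gene model Gm18795. Catsper2 overlaps 18 exonic bases of Pdia3 on the opposite strand.

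RefSeq promoter windows (build GRCm38.p6, 250 bases before to 50 after a start) matched 8 of the 10 members, with 10 windows in all. No window was matched for Catsper1 and Catsperg2. The 150 bases before the start are shown for 3 pore subunit genes and Adcy10, because Catsper2 kept its level between the cell types while the other genes rose, as described below. The stretches are chr2:121413793-121413942 for Catsper2 and chr4:134227384-134227533 for Catsper4, both on the minus strand, and chr13:55784429-55784578 for Catsper3 and chr1:165485033-165485182 for Adcy10, both on the plus strand. Each reads 5′ to 3′ on the strand of its gene, and capitals mark the dinucleotide CG.
Catsper2: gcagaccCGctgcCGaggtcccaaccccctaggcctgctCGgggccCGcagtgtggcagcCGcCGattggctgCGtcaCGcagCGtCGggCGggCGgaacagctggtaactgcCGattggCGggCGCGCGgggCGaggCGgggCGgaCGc
Catsper3: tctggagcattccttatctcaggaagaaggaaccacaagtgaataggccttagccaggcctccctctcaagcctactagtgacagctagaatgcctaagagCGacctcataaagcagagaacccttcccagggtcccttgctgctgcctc
Catsper4: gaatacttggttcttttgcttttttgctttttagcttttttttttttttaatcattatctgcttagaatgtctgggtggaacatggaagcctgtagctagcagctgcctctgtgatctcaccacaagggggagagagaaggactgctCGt
Adcy10: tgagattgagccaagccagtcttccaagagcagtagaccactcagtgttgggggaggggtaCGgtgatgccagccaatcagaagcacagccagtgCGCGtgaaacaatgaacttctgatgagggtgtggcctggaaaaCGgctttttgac
The Catsper2 stretch holds 21 CG, against 1 in each of the Catsper3 and Catsper4 stretches and 4 in that of Adcy10. Over the full 250 bases before the start, Catsper2 had 35 CG, and 97.0% of the 32851 RefSeq mouse windows had fewer. Over the same distance Catsper3 had 2, Catsper4 and Catsperb 1 each, Slc9c1 3 and Adcy10 5, against a median of 6 over all windows. The windows of Catsperg1 had 5 and 7, and those of Catsperd had 25 and 11. The 6 letters TGACGT, a core part of the cAMP response element, were searched on both strands of the 300-base windows. They occurred in 1 of the 10 member windows and in 7.51% of all windows. The match was in 1 of the 2 Catsperd windows, chr17:56626797-56627096, 142 bases before the RefSeq start of that window. This window lies upstream of the GENCODE start of Catsperd given above, and the other Catsperd window had no match. The letters GTTGCC, a core part of the RFX motif, occurred in 0 of the 10 member windows and in 12.5% of all windows. These matches describe those exact letters only, and variants of either motif were not searched. The CG count was chosen as a measure after the expression values were known.

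Between control PS and control RS the members went 3 ways. Catsper1, Catsper3 and Catsper4, which code for pore subunits, rose 4.02-fold, 4.48-fold and 4.27-fold, and Adcy10 rose 2.06-fold. The auxiliary subunit genes Catsperb, Catsperd, Catsperg1 and Catsperg2 fell 1.61-fold, 2.19-fold, 1.96-fold and 2.11-fold. Catsper2, the remaining pore subunit gene, and Slc9c1 did not pass the test. Thus 4 members were higher and 4 lower, where 27.8% of all genes tested were called higher, 30.9% lower and 58.8% in either direction. The libraries of RS and PS did not overlap for these 8 members, 4 in each direction, nor for 30.1% of all genes with RS higher and 33.7% with RS lower. Markers of somatic cells also moved with this step. Of the Sertoli cell markers 11 of 11 were lower in control RS, with sums of 456 to 1107 CPM in control PS and 40.5 to 76.5 CPM in control RS. Of the Leydig cell markers 5 of 6 were lower, from 324 to 650 CPM down to 14.7 to 52.1 CPM. Of 6 macrophage markers 4 were higher and 1 lower, with sums of 15.4 to 36.7 CPM and 30.9 to 43.7 CPM. Of 6 peritubular cell markers 1 was higher, with sums of 64.2 to 126 CPM and 275 to 417 CPM. Actg2 made up most of the RS sum, at 246 to 352 CPM against 48.1 to 60.4 CPM in control PS. The part of these markers in the result was not tested.

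Catsper1 is the pore subunit with the long histidine-rich amino end. Its level in control PS was 55.0, 63.4 and 52.5 CPM in replicate 1, replicate 3 and the remaining replicate, and in control RS 230, 206 and 250 CPM in that order. Every RS library was above every PS library. The log2 fold change of RS over PS was 2.01 (SE 0.188). Catsper3 stood at 24.1, 36.2 and 27.1 CPM in control PS and 104, 148 and 140 CPM in control RS, again with no overlap, and its log2 fold change was 2.16 (SE 0.1997). Catsper4 went from 50.6, 47.3 and 46.2 CPM to 193, 202 and 220 CPM, and its log2 fold change was 2.09 (SE 0.161). The 95% intervals of the 3 log2 fold changes, 1.57 to 2.44 for Catsper1, 1.70 to 2.62 for Catsper3 and 1.72 to 2.46 for Catsper4, overlapped widely.

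Catsper2 already stood high in meiosis. Its control levels were 541, 425 and 360 CPM in PS and 502, 463 and 533 CPM in RS, and the ranges overlapped. The log2 fold change was 0.17 (SE 0.185, adjusted p = 0.433) with a 95% interval of -0.25 to 0.60, which excludes a rise of the size of the other pore subunits. Slc9c1 measured 331, 309 and 184 CPM in control PS and 305, 271 and 224 CPM in control RS, also with overlap. Its log2 fold change was -0.04 (SE 0.239, adjusted p = 0.893), with an interval of -0.59 to 0.51. Adcy10 went from 346, 286 and 204 CPM in control PS to 728, 492 and 498 CPM in control RS, without overlap, and the log2 change was 1.04 (SE 0.227, adjusted p = 0.00125).

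The auxiliary subunits went the other way. Catsperd measured 290 to 410 CPM in control PS and 145 to 166 CPM in control RS, and its log2 fold change was -1.13 (SE 0.190). Catsperg1 went from 476 to 627 CPM down to 227 to 329 CPM, and Catsperg2 from 396 to 533 CPM down to 170 to 262 CPM. Their log2 fold changes were -0.97 (SE 0.206, adjusted p = 0.000962) and -1.08 (SE 0.232, adjusted p = 0.00110). Catsperb had the smallest fall of the 4 and the least firm one, from 146 to 232 CPM in control PS to 94.0 to 139 CPM in control RS. Its log2 fold change of -0.68 (SE 0.250, adjusted p = 0.0292) missed the threshold under DESeq2 size factors in edgeR (adjusted p = 0.0678), without the low-count filter (0.0520) and under DESeq2 (0.0615). It also missed it when replicate 1 or 3 of control PS (0.121 and 0.0622), replicate 1 or 3 of KO PS (0.0629 and 0.0672), or replicate 3 or the remaining replicate of control RS (0.0988 and 0.198) was left out.

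**Figure D1:**
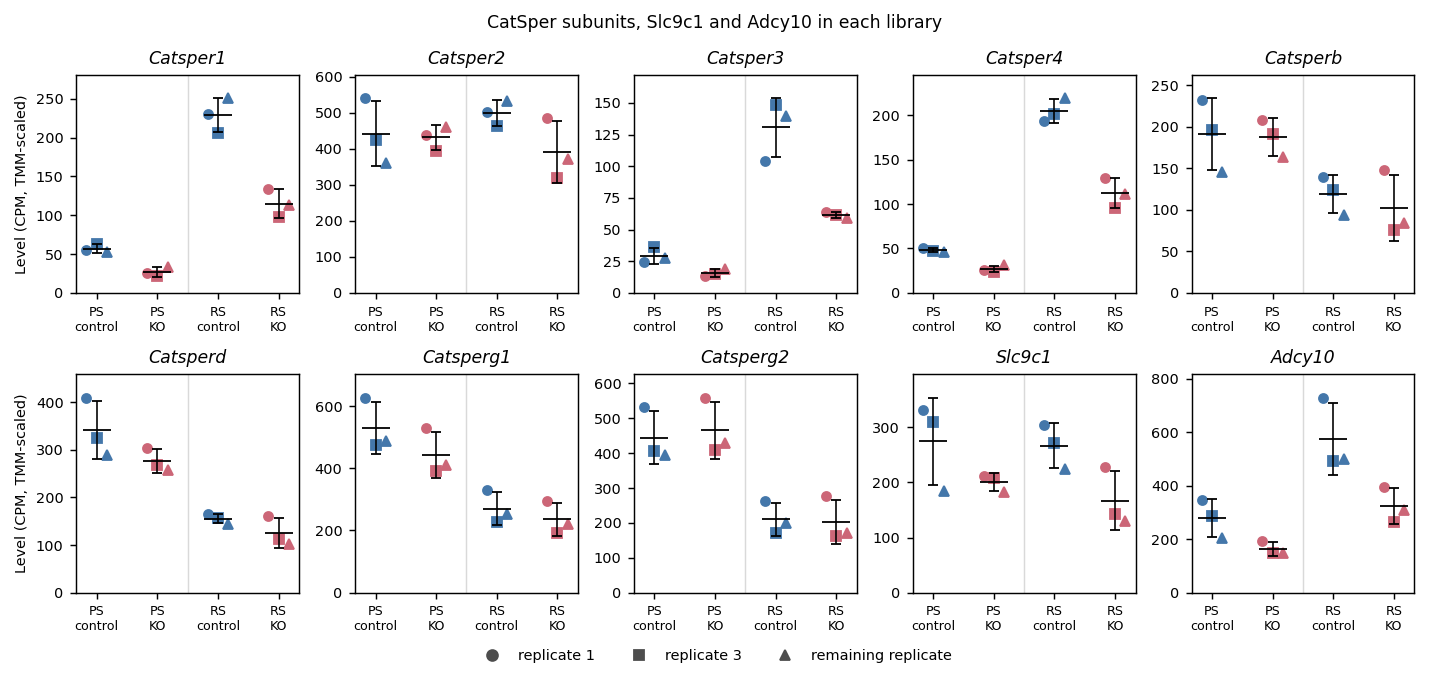
Level of each member in each library, in CPM after TMM scaling (linear axis from 0, own scale in each panel), by group. Symbols are the 3 libraries of a group, horizontal lines are means and bars are SD. Catsper1, Catsper3 and Catsper4 are highest in control RS, at 206 to 250, 104 to 148 and 193 to 220 CPM, while Catsper2 overlaps between control PS and control RS.

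The same step was measured in KO cells. In KO RS against KO PS, Catsper1, Catsper3, Catsper4 and Adcy10 were called higher and Catsperb, Catsperd, Catsperg1 and Catsperg2 lower, where 30.5% of all genes were called higher, 27.6% lower and 58.1% in either direction. Their libraries did not overlap, which held for 33.2% of all genes with RS higher and 31.4% with RS lower. The log2 fold changes were 2.09 for Catsper1 (SE 0.190), 1.96 for Catsper3 (SE 0.201), 2.06 for Catsper4 (SE 0.162) and 0.99 for Adcy10 (SE 0.228). For the auxiliary subunits they were -0.87 for Catsperb, -1.14 for Catsperd, -0.91 for Catsperg1 and -1.20 for Catsperg2. Catsper2 (-0.14, adjusted p = 0.538) and Slc9c1 (-0.27, adjusted p = 0.357) did not pass. Without replicate 1 of KO RS, the value of Slc9c1 was -0.61 (adjusted p = 0.0430). Of the somatic markers, 11 of 11 for Sertoli and 5 of 6 for Leydig cells were lower in KO RS than in KO PS, with sums of 774 to 1538 against 53.6 to 273 CPM and 333 to 658 against 16.6 to 116 CPM. Higher in KO RS were 6 of 6 peritubular markers (24.1 to 44.6 against 180 to 342 CPM). Most of these peritubular sums was Actg2, at 16.9 to 31.7 against 145 to 219 CPM. Also higher were 5 of 6 macrophage markers (16.3 to 31.1 against 79.8 to 104 CPM) and 7 of 8 spermatogonial markers. The spermatogonial sums of 798 to 1094 and 821 to 990 CPM overlapped. Most of them was Dmrtb1, at 730 to 1024 and 565 to 806 CPM. The part of the somatic and spermatogonial markers in the values of the members was not tested.

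**Figure D2:**
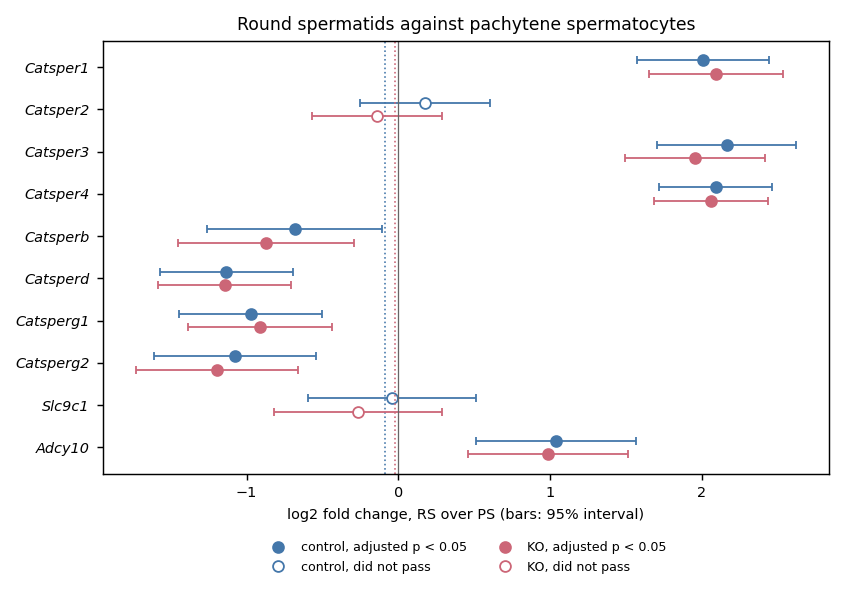
Log2 fold change of RS over PS for each member in control cells (blue) and KO cells (red), with 95% intervals as bars and filled symbols where the adjusted p was below 0.05. Dotted lines mark the median of all genes tested, -0.09 in controls and -0.02 in KO. Catsper1, Catsper3 and Catsper4 lie near 2 in both genotypes and the 4 auxiliary subunits lie below 0.

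Levels were compared between members per kilobase of exon (CPM per kb), with exon lengths from GENCODE M21, which may differ from the annotation used for counting. Catsper2 was the most abundant member in all 4 groups, at 197 ± 40.7 CPM per kb (SD, n = 3) in control PS and 222 ± 15.7 in control RS. In control PS it was followed by Catsperd at 133 ± 23.9, Catsperg2 at 112 ± 19.4 and Catsperg1 at 104 ± 16.5 CPM per kb, whose library values overlapped each other. Slc9c1 at 71.6 ± 20.6, Catsperb at 51.5 ± 11.7 and Adcy10 at 51.1 ± 13.1 CPM per kb came next and also overlapped. Catsper1 at 26.0 ± 2.62, Catsper4 at 23.6 ± 1.14 and Catsper3 at 21.4 ± 4.63 CPM per kb were the lowest and overlapped each other, below every library value of the other members. In control RS the order was different. Adcy10 at 105 ± 24.8, Catsper1 at 105 ± 10.2, Catsper4 at 100.6 ± 6.61 and Catsper3 at 96.1 ± 17.01 CPM per kb came after Catsper2 and overlapped each other. Below them by mean were Slc9c1 at 69.6 ± 10.6, Catsperd at 60.6 ± 4.01, Catsperg2 at 53.2 ± 11.9 and Catsperg1 at 53.1 ± 10.4 CPM per kb, where each overlapped its neighbour in the order. Slc9c1 also overlapped Catsper3, with a highest library of 79.5 against a lowest of 76.8 CPM per kb. Catsperb was last at 32.1 ± 6.21 CPM per kb, with every library below those of Catsperg1.

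The 3 rising pore subunits were also set against Catsper2 within each library, so that the scaling between libraries cancels. In control PS, Catsper1 per kb was 10.4% to 15.3% of Catsper2, and in control RS 45.8% to 48.3%. Catsper3 went from 7.36% to 14.1% of Catsper2 in control PS to 34.4% to 52.9% in control RS, and Catsper4 from 10.3% to 14.1% to 42.5% to 48.2%. In KO libraries these percentages were smaller. Catsper1 was 5.60% to 7.54% of Catsper2 in KO PS and 28.3% to 31.7% in KO RS. Catsper3 was 5.02% to 6.89% in KO PS and 21.7% to 31.8% in KO RS, and Catsper4 was 6.58% to 7.41% and 29.3% to 33.3%. For each of the 3 genes, every KO library lay below every control library of the same cell type. In CPM, this held for 13.7% of all genes in PS and 21.6% in RS. No share was computed for percentages of Catsper2. The 3 genes and Catsper2 were picked by their values in these same libraries. With 3 libraries against 3, an exact permutation test of such a percentage cannot go below 0.10, and none was run.

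**Figure D3:**
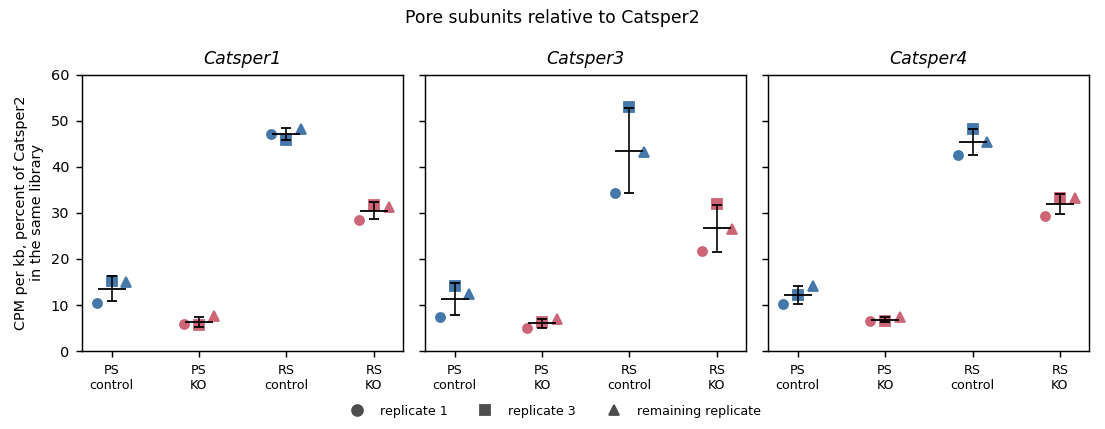
Level per kb of Catsper1, Catsper3 and Catsper4 as a percentage of Catsper2 in the same library (linear axis from 0), by group. Symbols are libraries, horizontal lines are means and bars are SD. Catsper1 is at 45.8% to 48.3% in control RS and 28.3% to 31.7% in KO RS.

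In KO PS, 2 of the 10 members were called lower and 0 higher, where 4.50% of all genes were called lower, 0.910% higher and 5.41% in either direction. Catsper1 fell 2.06-fold and Catsper4 fell 1.74-fold. No member was called higher by edgeR, by DESeq2 or by limma voom, and 0 members were higher and 4 lower at an unadjusted p below 0.05 in edgeR. The share of all genes at that unadjusted p was not computed. The median log2 fold change of the 10 members was -0.34, against 0.06 over all genes tested. In these bulk samples, fewer cells of a type and less RNA per cell cannot be told apart.

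Catsper1 measured 55.0, 63.4 and 52.5 CPM in control PS and 25.5, 21.5 and 33.9 CPM in KO PS, so that all KO libraries were below all control libraries. The log2 fold change was -1.04 (SE 0.201, adjusted p = 0.0105), and without replicate 3 of KO PS it was -0.90 and no longer passed (adjusted p = 0.0551). Catsper4 measured 50.6, 47.3 and 46.2 CPM in control PS and 26.1, 23.6 and 31.0 CPM in KO PS, also without overlap. On the log2 scale it fell by 0.80 (SE 0.182, adjusted p = 0.0219). The call on Catsper4 was lost when replicate 1 or 3 of control PS or replicate 1 or 3 of KO PS was left out, with adjusted p of 0.0826, 0.0653, 0.0837 and 0.108 in that order.

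A further 2 members had KO PS libraries wholly below control PS without passing the test. Catsper3 measured 24.1, 36.2 and 27.1 CPM in control PS and 13.3, 15.0 and 19.2 CPM in KO PS, and the log2 change was -0.84 (SE 0.232, adjusted p = 0.0511). Adcy10 measured 346, 286 and 204 CPM in control PS and 192, 148 and 149 CPM in KO PS, and the log2 change was -0.73 (SE 0.206, adjusted p = 0.0554). Libraries with the same replicate number deviated together, and with the replicate block both passed, at adjusted p = 0.00601 for Catsper3 and 0.00108 for Adcy10. Both also passed in DESeq2, at 0.0114 and 0.0203, and without the remaining replicate of control PS, at 0.0444 and 0.0178. Without the remaining replicate of KO PS, Catsper3 was at -1.05 (adjusted p = 0.0350). Slc9c1 had overlapping groups, with 331, 309 and 184 CPM in control PS and 212, 208 and 183 CPM in KO PS. Its log2 fold change was -0.41 (SE 0.209, adjusted p = 0.290), and it passed with the block at -0.37 (adjusted p = 0.0433) and without the remaining replicate of control PS at -0.66 (adjusted p = 0.0245). With the block, 5 of 10 members were thus called lower, and 3476 genes in all were called in place of 826. Groups that did not overlap, with KO lower, were found for 4 members and for 13.7% of all genes.

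The other 5 members did not pass in PS with or without the block. Catsper2 was at 541, 425 and 360 CPM in control PS and 438, 394 and 461 CPM in KO PS, and the log2 change was 0.00 (SE 0.181, adjusted p = 0.994). Its 95% interval ran from -0.50 to 0.51. For Catsperb the value was 0.01 (interval -0.52 to 0.55), for Catsperd -0.26 (-0.75 to 0.23), for Catsperg1 -0.22 (-0.73 to 0.29) and for Catsperg2 0.11 (-0.41 to 0.63). The PS groups of all 5 overlapped.

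The authors' deposited table gives 4 members as lower in KO PS at an adjusted p below 0.05 and 0 as higher. Its log2 fold changes were -1.12 for Catsper1, -0.92 for Catsper3, -0.87 for Catsper4 and -0.81 for Adcy10 in the authors' deposited table. The set-up of that test was not given in the sources used here.

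Some markers of later germ cells were also lower in KO PS, where 4.50% of all genes were called lower and 0.910% higher. Of 11 late spermatid markers, 8 were called lower and 0 higher, with a median log2 fold change of -1.53, and their summed level was 4562 to 6599 CPM in control PS and 2836 to 3751 CPM in KO PS. Of 8 round spermatid markers, 2 were called lower, Acrv1 and Spaca3, and the summed levels of 1773 to 2434 CPM and 1753 to 2090 CPM overlapped. Of 6 peritubular cell markers, 3 were lower. The sum of all 6 was 64.2 to 126 CPM in control PS and 24.1 to 44.6 CPM in KO PS. Of it, Actg2 held 48.1 to 60.4 and 16.9 to 31.7 CPM. Sertoli cell markers summed to 456 to 1107 CPM in control PS and 774 to 1538 CPM in KO PS, with 0 of 11 called, and of 8 spermatogonial markers 1 was higher. None of these lists had a marker at 0 in every library of a PS group. Catsper1, Catsper3 and Catsper4 are themselves far higher in RS than in PS. The part of these markers in the fall of the pore subunits in KO PS was not tested.

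In KO RS, 4 of the 10 members were called lower and 0 higher, where 12.4% of all genes were called lower, 18.7% higher and 31.0% in either direction. These were Catsper3, lower 2.12-fold, Catsper1, lower 1.98-fold, Catsper4, lower 1.82-fold, and Adcy10, lower 1.77-fold. No member was called higher by edgeR, by DESeq2 or by limma voom, and 0 members were higher and 5 lower at an unadjusted p below 0.05 in edgeR. For all genes, the share at that unadjusted p was not computed. The median over the members was -0.51 on the log2 scale, against 0.02 over all genes.

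Catsper1 measured 230, 206 and 250 CPM in control RS and 134, 98.0 and 113 CPM in KO RS. The groups were far apart, and the log2 fold change was -0.98 (SE 0.182, adjusted p = 0.00611). Catsper3 measured 104, 148 and 140 CPM in control RS and 63.8, 61.3 and 59.3 CPM in KO RS, with KO libraries close together and below all controls. For this gene the log2 fold change was -1.08 (SE 0.182, adjusted p = 0.00475). For Catsper4 the control RS libraries held 193, 202 and 220 CPM and the KO RS libraries 129, 95.5 and 112 CPM, again without overlap, and the log2 fold change was -0.86 (SE 0.176, adjusted p = 0.00843). These 3 calls held when any single RS library was left out. Without both remaining replicates of RS, which are the shallowest, none of the members and 0 of all genes passed, with -0.90 for Catsper1, -1.01 for Catsper3 and -0.81 for Catsper4.

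Adcy10 measured 728, 492 and 498 CPM in control RS and 395, 262 and 310 CPM in KO RS, without overlap. Its log2 fold change was -0.82 (SE 0.223, adjusted p = 0.0219). This call was lost without replicate 1 of control RS (-0.62, adjusted p = 0.0675), without replicate 3 of KO RS (-0.70, adjusted p = 0.0812), without the remaining replicate of KO RS (-0.80, adjusted p = 0.0840) and when libraries were scaled to their total counts only (-0.57, adjusted p = 0.0578). That scaling moved the median of all genes in RS by 0.26.

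Slc9c1 measured 305, 271 and 224 CPM in control RS and 229, 142 and 130 CPM in KO RS, where replicate 1 of KO RS overlapped the controls by a small margin. The log2 fold change was -0.67 (SE 0.236, adjusted p = 0.0541). It passed in DESeq2 (adjusted p = 0.0232) and with the replicate block at -0.70 (adjusted p = 0.000963), and without replicate 1 of KO RS it was -0.98 (adjusted p = 0.00861). Catsper2 measured 502, 463 and 533 CPM in control RS and 486, 318 and 371 CPM in KO RS, with overlap. Its log2 fold change was -0.34 (SE 0.194, adjusted p = 0.189), and it passed with the block (adjusted p = 0.0430) and without replicate 1 of KO RS (-0.54, adjusted p = 0.0296). Catsperd had -0.31 (SE 0.202, adjusted p = 0.255) and passed under the same settings, at -0.33 (adjusted p = 0.0486) and -0.55 (adjusted p = 0.0310). With the block, 7 members were thus called lower, and 8736 genes in all were called in place of 4942. Groups that did not overlap, with KO lower, were found for 4 members and for 21.6% of all genes.

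Catsperb, Catsperg1 and Catsperg2 did not pass in RS with or without the block. Their log2 fold changes were -0.21 (95% interval -0.94 to 0.53), -0.19 (-0.79 to 0.41) and -0.05 (-0.73 to 0.64), and all 3 turned positive when libraries were scaled to total counts only. The authors' deposited table gives 5 members as lower in KO RS at an adjusted p below 0.05 and 0 as higher. Its log2 fold changes were -1.12 for Catsper1, -1.21 for Catsper3, -0.99 for Catsper4, -0.96 for Adcy10 and -0.80 for Slc9c1 in the authors' deposited table. The share of all genes called there was not computed.

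**Figure D4:**
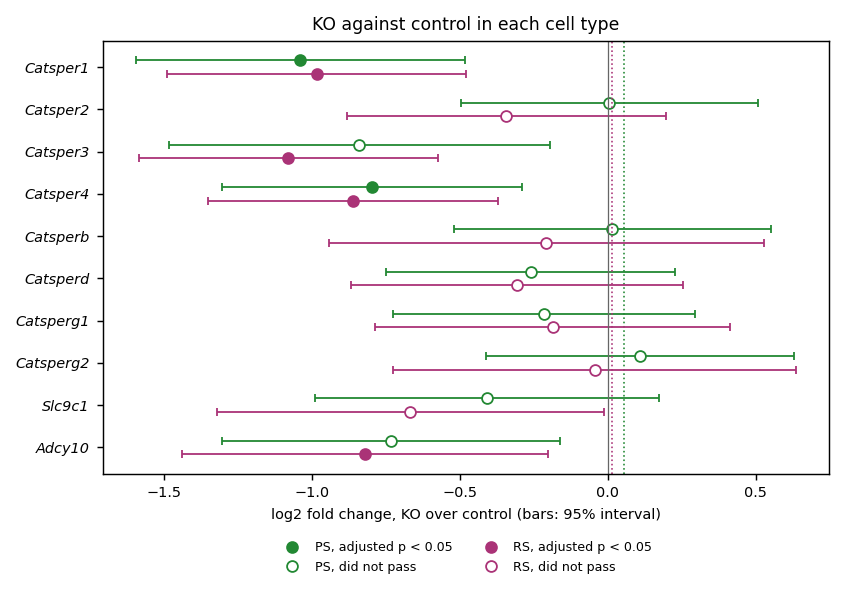
Log2 fold change of KO over control for each member in PS (green) and RS (purple), with 95% intervals as bars and filled symbols where the adjusted p was below 0.05. Dotted lines mark the median of all genes tested, 0.06 in PS and 0.02 in RS. Catsper1 and Catsper4 were lower in both cell types, and the intervals of Catsper2, Catsperb, Catsperd, Catsperg1 and Catsperg2 include 0 in both.

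Markers of other cell types and stages were also compared between the RS groups, where 18.7% of all genes were called higher and 12.4% lower. Of 8 round spermatid markers, 6 were called lower in KO RS and 0 higher, and their summed level was 2755 to 3664 CPM in control RS and 1789 to 2276 CPM in KO RS. The 11 late spermatid markers had a median log2 fold change of -0.53 with 0 called. Their sums of 16334 to 31821 CPM and 10523 to 22036 CPM overlapped. Of 10 pachytene markers, 1 was higher and 1 lower. Of 6 macrophage markers, 5 were higher, and their sum was 30.9 to 43.7 CPM in control RS and 79.8 to 104 CPM in KO RS. Of 8 spermatogonial markers 6 were higher. The sums of all 8, 850 to 1108 CPM in control RS and 821 to 990 CPM in KO RS, overlapped. Most of both sums was Dmrtb1, which was not called higher, at 785 to 1020 and 565 to 806 CPM. Of 8 Sertoli cell markers tested 2 were higher, and of 6 Leydig cell markers 1 was higher. Sertoli cell markers summed to 40.5 to 76.5 CPM in control RS and 53.6 to 273 CPM in KO RS, with overlap. Leydig cell markers summed to 14.7 to 52.1 CPM and 16.6 to 116 CPM, also with overlap. The part of these markers in the values of the members in RS was not tested.

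The difference between the KO effects in RS and in PS was tested in a fit of all 12 libraries. None of the 10 members passed in edgeR, DESeq2, limma voom or with the replicate block, and 0 had an unadjusted p below 0.05 in edgeR. After adjustment 0.0181% of all genes passed, 3 of 16581, and 1285 genes passed with the block. The share of all genes at an unadjusted p below 0.05 was not computed. The smallest adjusted p among the members was 0.605, for Catsper2, where the KO effect was lower in RS than in PS by a log2 difference of -0.31 (95% interval -0.92 to 0.29). For Catsper1 the difference was 0.09 (-0.51 to 0.68), for Catsper3 -0.21 (-0.84 to 0.42), for Catsper4 -0.03 (-0.54 to 0.48) and for Adcy10 -0.05 (-0.79 to 0.68). For Slc9c1 it was -0.22 (-1.01 to 0.56). Differences within these intervals are not excluded by the data. The KO effects and the step from PS to RS share their control libraries, and each is given above with its own values.

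Other genes of the channel and the pathway came from lists chosen with earlier results of these data known. Of 10 further genes listed for the CatSper complex, 6 were analysed here: Catsperz, Efcab9, Tmem262, Slco6c1, Trim69 and C2cd6, which the tables list as Als2cr11. In KO PS 0 of the 6 passed in edgeR, with a median log2 fold change of -0.14, and 1 passed, lower, with the block, in DESeq2 and without the low-count filter. In KO RS 4 were called lower and 0 higher, against 12.4% of all genes called lower, with a median of -0.60. The count of 4 was 1 with total-count scaling, without replicate 3 of control RS and without the remaining replicate of KO RS, 2 without the remaining replicate of control RS and without replicate 3 of KO RS, and 0 without both remaining libraries. Efcab9, whose product is a calcium sensor of the complex, measured 116 to 202 CPM in control RS and 66.8 to 80.2 CPM in KO RS, and the log2 change was -1.12 (SE 0.222, adjusted p = 0.00753). Tmem262 measured 21.5 to 51.2 CPM and 14.6 to 16.8 CPM (-1.08, SE 0.291, adjusted p = 0.0215). Catsperz, which codes for the partner of EFCAB9, had -0.62 (adjusted p = 0.0479) and Trim69 -0.57 (adjusted p = 0.0488). Between control PS and control RS, Efcab9 rose by a log2 fold change of 2.18 (SE 0.236) and Tmem262 by 2.31 (SE 0.324), and the other 4 did not pass. Tmem217, which codes for a partner of SLC9C1 in mouse sperm, rose in the step from control PS to control RS by 0.53 on the log2 scale (adjusted p = 0.0459). This call was lost with total-count scaling and without replicate 1 or the remaining replicate of control PS, the remaining replicate of KO PS, replicate 3 of control RS, or replicate 3 or the remaining replicate of KO RS. In KO RS its value was -0.52 and did not pass (adjusted p = 0.0797), but it was called lower with the replicate block and without replicate 1 of control RS.

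Of 14 genes of cAMP, protein kinase A and calcineurin signalling in sperm, 6 were called lower and 0 higher in KO PS, against 4.50% of all genes called lower, with a median log2 fold change of -0.12. The count of lower genes was 2 without replicate 3 of KO PS, and 1 gene was called higher with the replicate block. Among them were Akap4, an anchoring protein of the fibrous sheath, at -1.25 (SE 0.201, adjusted p = 0.00582), and Prkar2a, a regulatory subunit of protein kinase A, at -1.34 (SE 0.257, adjusted p = 0.0105). Akap3, another anchoring protein, had -0.87, and Pde1a, a calcium-dependent phosphodiesterase, had -1.09. In KO RS 6 of the 14 were lower and 1 higher, against 12.4% and 18.7% of all genes, with a median of -0.50. The count of lower genes was 2 without the remaining replicate of KO RS and 0 without both remaining libraries. Pde1a had -1.01 (SE 0.183, adjusted p = 0.00580), Ropn1 -0.998, Akap3 -0.78 and Cabyr -0.90, and the higher gene was the membrane adenylyl cyclase Adcy3 at 0.80 (SE 0.240, adjusted p = 0.0310). The Adcy3 call was lost without any one of the 3 control RS libraries and without replicate 3 or the remaining replicate of KO RS, and the gene was named after its value was seen. In the step from control PS to control RS, 7 of the 14 rose and 1 fell, against 27.8% and 30.9% of all genes. Akap4 was at 2.53, Ropn1 at 2.40 and Akap3 at 2.103.

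Of 14 other ion transport genes of sperm, 12 passed the filter. In KO PS 3 of the 12 were lower and 0 higher, against 4.50% of all genes called lower, with a median log2 fold change of -0.05. The count was 1 without replicate 1 or 3 of control PS or replicate 1 or 3 of KO PS. Atp1a4, the sodium pump subunit of sperm, measured 146 to 162 CPM in control PS and 47.4 to 76.3 CPM in KO PS, and the log2 change was -1.29 (SE 0.190, adjusted p = 0.00558). Kcnu1, the pore of the sperm potassium channel SLO3, had -0.74 (adjusted p = 0.0313), and its auxiliary subunit Lrrc52 had -1.02 (adjusted p = 0.0490). In KO RS 4 of the 12 were lower and 0 higher, against 12.4% of all genes called lower, with a median of -0.33. The count of lower genes was 2 with total-count scaling and without replicate 1 or the remaining replicate of control RS or replicate 3 of KO RS, 1 without the remaining replicate of KO RS, and 0 without both remaining libraries. It was 6 with the replicate block and without replicate 1 of KO RS, and 1 gene was called higher in both of these and with total-count scaling. Lrrc52 had -1.04 (SE 0.205, adjusted p = 0.00749), Abhd2 -0.75, Kcnu1 -0.72 and Atp1a4 -0.58. Abhd2 is a lipid hydrolase that acts in the progesterone response of CatSper in human sperm. In the step from control PS to control RS, Atp1a4 at 2.23, Lrrc52 at 1.93, Kcnu1 at 1.86 and Abhd2 at 1.41 were among 6 that rose, and 2 fell, or 1 without replicate 3 or the remaining replicate of control RS. Of all genes, 27.8% were called higher and 30.9% lower in this step.

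**Figure D5:**
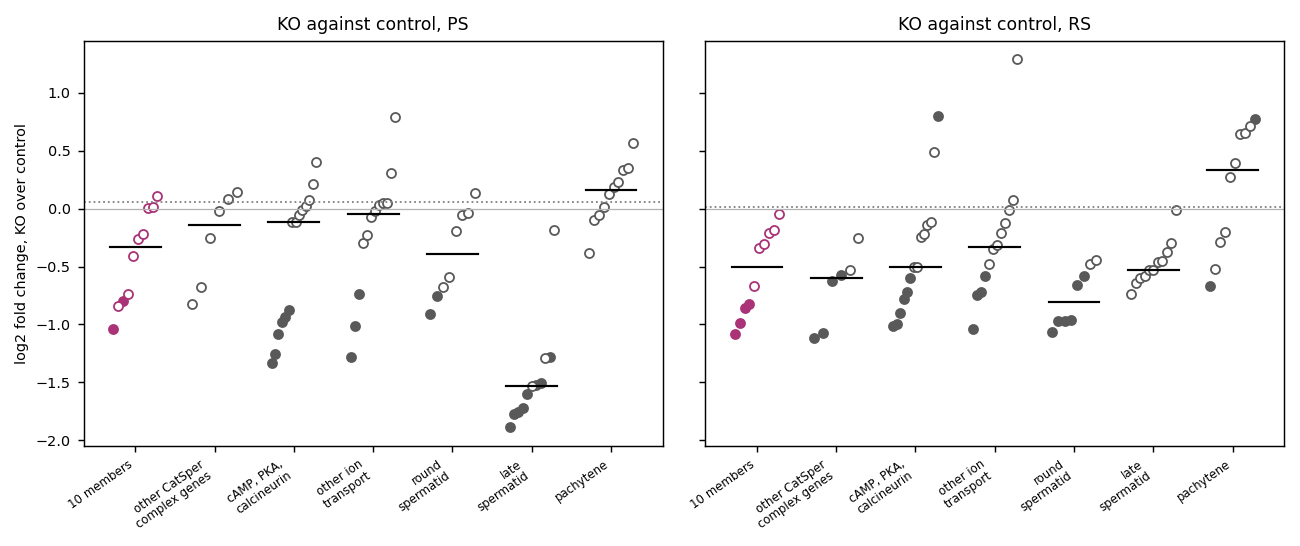
Log2 fold change of KO over control in PS (left) and RS (right) for the 10 members and for the genes of 6 lists, one point a gene, filled where the adjusted p was below 0.05. Short lines are list medians and the dotted line is the median of all genes tested. In PS the late spermatid markers have a median of -1.53 and the members of -0.34, and in RS the round spermatid markers have -0.81 and the members -0.51.

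Genes whose pattern over the 12 libraries was most like that of a member were found by the Euclidean distance of log2 CPM centred on each gene, among 11194 genes with a mean of at least 5 CPM. For Catsper1 these were Ccdc183 at a distance of 0.374, Ace3 at 0.425 and Dsg1a at 0.428. Of the other members Catsper4 was the nearest to Catsper1, at 0.482 with 7 genes nearer, followed by Catsper3 at 0.741 with 112 genes nearer. Catsper2 was at 3.88 with 3770 genes nearer, and Catsperg2 at 5.92 with 9201 nearer. For Slc9c1 the nearest genes were Zfp110, Zfp189 and Katnal2, at 0.343, 0.400 and 0.404, and the nearest member was Catsper2 at 0.990 with 608 genes nearer. For Adcy10 they were Col14a1, Kcnab2 and Ttc21a, at 0.474, 0.538 and 0.581, and the nearest member was Catsper4 at 2.03 with 1993 genes nearer.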

How the data were processed

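The members and the gene lists were chosen with earlier results of these data known. The authors aligned reads with HISAT2 2.1.0, counted them with HTSeq on mm10 and named DESeq2, per the submitters' processing notes; the annotation and strand setting were not given in the sources used here, and overlapping, antisense and near-identical genes are therefore uncertain. TRIzol-extracted total RNA was made into TruSeq stranded libraries, per the labels' protocols. Raw counts per gene were deposited by the authors as 2 tables, 1 per cell type, with the authors' own log2 fold changes and p-values in the deposited tables; the 12 normalized columns were left out.

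Each group had a column that matched replicate 1, one that matched replicate 3 and one that matched the group only. The submitters call the samples biological triplicates. The p-values measure the spread between these libraries, with the spread of each gene drawn towards that of all genes tested. No replicates agreed within sampling noise (lowest chi-square per gene 16.6). A count of 3, the floor, was worth 0.172 to 0.268 CPM; precision at these depths covers counting error only.

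The KO comparisons used edgeR 4.0.16 (R 4.3.3) with its quasi-likelihood test, separately by cell type (TMM, filterByExpr, Benjamini-Hochberg over all genes tested, threshold 0.05; 6 libraries, 4 residual degrees of freedom). The steps and the interaction came from 1 fit of 12 libraries (8 residual degrees of freedom). The SE is the log2 fold change over the square root of F, and 95% intervals use the residual degrees of freedom. The tests add degrees of freedom drawn from all genes, so the intervals are wider than the p-values imply. Alternatives were DESeq2 1.42.0, limma 3.58.1 voom, other scalings, no filter, left-out libraries and a replicate block. Deviations of same-number libraries correlated at 0.464 to 0.665 within a cell type and 0.238 to 0.694 across them. For different numbers the values were -0.613 to 0.0223 and -0.623 to 0.265, so the ranges overlapped across cell types. Deviations were taken from group means, so positive values for same numbers push those for different numbers to the negative side. The contrast between them is therefore partly fixed in advance. The labels name no pairing, and the main fits did not use it. The replicate block treated same-number libraries as paired. For replicates 1 and 3 the numbers come from the labels, for the remaining replicates from elimination. Named genes were the 10 members, Hdac3, up to 4 called genes per list and comparison by smallest p, and the 3 genes most like Catsper1, Slc9c1 and Adcy10 (prior count 2). Exon lengths from GENCODE M21 matched 18425 of 21429 symbols.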

Additional observations from a re-analysis of the deposited data

How the results depend on the processing

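The number of members called lower in PS was 2, and it was 4 without the low-count filter, 4 with DESeq2, 5 with the replicate block, 5 without both remaining PS libraries and 0 to 5 when 1 library was left out. In RS it was 4, and 7 with the block, 0 without both remaining RS libraries and 3 to 7 when 1 library was left out. Without both remaining libraries, 2 a group were left in PS as in RS. The cause of these changes was not tested. All genes called numbered 826 in PS, and 1257 with DESeq2 and 3476 with the block. They numbered 1220 without both remaining PS libraries and 288 to 1592 with 1 PS library left out. In RS they numbered 4942, and 8736 with the block, 0 without both remaining RS libraries and 1546 to 6391 with 1 left out. For the interaction they numbered 3, and 35 with total-count scaling, 6 without the filter, 95 with DESeq2, 1285 with the block and 0 to 6 with 1 left out. The block changed no call of a member other than those named in the report.

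Signs turned only for values that had not passed. In PS, Catsper2 was -0.0145 with DESeq2 size factors in edgeR and with DESeq2, -0.0157 with total-count scaling, -0.0264 without the filter and -0.22 without both remaining libraries. Catsperb in PS was -0.00809 with DESeq2 size factors and -0.00808 with DESeq2, -0.0123 with total-count scaling, -0.0195 without the filter and -0.10 without both remaining libraries. In RS, total-count scaling gave 0.0356 for Catsperb, 0.0592 for Catsperg1 and 0.195 for Catsperg2, and Catsperg2 was 0.0301 without both remaining libraries. The interaction of Catsper1 was -0.00401 with DESeq2 size factors and -0.00342 with DESeq2, and that of Catsperg1 was -0.0323 with both and -0.0208 without the filter. Total-count scaling, which moved the median interaction of all genes by 0.27, turned the interaction to 0.0489 for Catsper3, 0.22 for Catsper4, 0.0475 for Catsperb, 0.23 for Catsperd, 0.12 for Catsperg2, 0.00802 for Slc9c1 and 0.18 for Adcy10. The control step of Slc9c1 was 0.0542 with DESeq2 size factors and with DESeq2, and 0.0552 without the filter. With 1 library left out, the values ranged from -0.15 to 0.18 for Catsper2, -0.18 to 0.18 for Catsperb and -0.0532 to 0.26 for Catsperg2 in PS, -0.35 to 0.14 for Catsperg2 in RS, and -0.16 to 0.15 for the control step of Slc9c1. For the interaction they ranged from -0.34 to 0.0944 for Adcy10, -0.16 to 0.28 for Catsper1, -0.26 to 0.0797 for Catsper4, -0.35 to 0.12 for Catsperd, -0.25 to 0.20 for Catsperg1 and -0.52 to 0.0186 for Catsperg2. Left-out fits that leave 2 libraries in a group take the spread from all groups fitted.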

Other observations

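The near copies Catsperg1 and Catsperg2, which both code for the gamma subunit, differed in their ratio between the PS groups. Catsperg2 per kb was 104% to 109% of Catsperg1 in the 3 control PS libraries and 134% to 136% in the 3 KO PS libraries, without overlap. In RS it was 96.3% to 102% in controls and 98.7% to 120% in KO, with overlap. The ratio was looked at after the values were seen and no test was run. Catsperg1 was lower in KO than in control in 3 of 3 PS pairs of the same number, by log2 ratios of -0.24, -0.29 and -0.25, while Catsperg2 was higher in 3 of 3, at 0.07, 0.01 and 0.11. The bases the copies share make both values uncertain.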
